A study of Mus musculus with 6 samples.

Results

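The 113 heavy chain variable segments (Ighv) of the mouse were described by family in RNA-seq libraries of cells from the colonic lamina propria. A row of the deposited tables was taken as a member where its gene identifier belonged, in GENCODE mouse release 21, to a symbol starting with Ighv and to the biotype IG_V_gene. That rule took 113 of 55401 rows and uses no measured value. The number before the hyphen in a symbol gave the family, and the segments fell into 16 families: 53 in Ighv1, 10 in Ighv5, 9 each in Ighv2 and Ighv8, 6 in Ighv3, 5 in Ighv6, 4 each in Ighv7, Ighv9 and Ighv14, 2 each in Ighv10 and Ighv11, and 1 each in Ighv4, Ighv12, Ighv13, Ighv15 and Ighv16. Another 70 Ighv rows of pseudogene biotype and 2 of biotype IG_LV_gene were left out.

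The mice were males of 5 to 6 weeks with the genotype Apc Min/+, which carry a truncating mutation in the tumour suppressor gene Apc and are a model of intestinal adenoma. The vehicle group (3 libraries) was given 2% Tween 80, and the atorvastatin group (3 libraries) was given 20 mg/kg of atorvastatin, a statin that inhibits HMG-CoA reductase; both were given by gavage every other day. All animals thus carried the Apc mutation, and both groups were gavaged. The labels name no sorting of the cells. They do not say how many animals gave a library or that libraries came from separate animals, and p-values therefore measure the spread between libraries, which may be technical.

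A heavy chain variable region is built in each B cell lineage by joining 1 variable segment to a diversity and a joining segment, and all descendants of that cell transcribe the same rearranged segment. Plasma cells make very large amounts of antibody RNA, and in the gut wall most of it codes for IgA. The level of a segment in bulk RNA therefore depends both on how many cells use it and on how much RNA each of them makes, and these cannot be told apart here.

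All 113 segments lay on the minus strand of chromosome 12 (mm10), over 2422 kb, and their coordinates in the files were those of GENCODE for all 113. The exonic length of a segment was 294 to 480 bases, with a median of 353. Ighv1-5 overlapped the microRNA gene Mir7094-2 and Ighv1-62-1 overlapped Gm19331.

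Ighv1-81 was the most abundant segment, and its sequence is shown beside that of Ighv1-85, the segment nearest to it in sequence. Both are the last 294 coding bases of the variable exon, 5′ to 3′ on the minus strand of chromosome 12, from GENCODE transcripts (Ighv1-81 at chr12:115920279-115920572, Ighv1-85 at chr12:116000028-116000321, mm10). Capitals mark the 21 bases at which the 2 stretches differ.
Ighv1-81: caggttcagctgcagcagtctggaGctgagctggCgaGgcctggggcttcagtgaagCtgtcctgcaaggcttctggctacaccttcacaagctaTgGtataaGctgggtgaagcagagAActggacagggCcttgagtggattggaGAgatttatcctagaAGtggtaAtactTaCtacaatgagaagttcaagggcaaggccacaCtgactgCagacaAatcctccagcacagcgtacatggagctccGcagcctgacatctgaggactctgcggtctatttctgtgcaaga
Ighv1-85: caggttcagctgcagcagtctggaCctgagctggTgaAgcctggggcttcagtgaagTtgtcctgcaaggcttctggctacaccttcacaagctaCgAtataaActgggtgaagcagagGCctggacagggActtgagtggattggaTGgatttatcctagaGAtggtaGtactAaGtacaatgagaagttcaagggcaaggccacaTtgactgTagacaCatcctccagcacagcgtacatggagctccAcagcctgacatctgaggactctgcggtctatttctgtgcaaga

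Ighv9-3 and Ighv5-9 are shown because each had a value in 1 library far above its values in the others. These are again the last 294 coding bases (Ighv9-3 at chr12:114140692-114140985, Ighv5-9 at chr12:113661769-113662062, minus strand, mm10). Capitals mark the last TGT, the codon of the cysteine that opens CDR3, the most variable loop of the antibody.
Ighv9-3: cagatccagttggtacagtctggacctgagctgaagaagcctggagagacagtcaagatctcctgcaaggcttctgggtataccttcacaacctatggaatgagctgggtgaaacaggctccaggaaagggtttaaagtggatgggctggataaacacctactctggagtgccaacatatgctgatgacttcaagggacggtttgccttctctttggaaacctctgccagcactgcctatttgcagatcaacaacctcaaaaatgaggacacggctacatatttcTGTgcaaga
Ighv5-9: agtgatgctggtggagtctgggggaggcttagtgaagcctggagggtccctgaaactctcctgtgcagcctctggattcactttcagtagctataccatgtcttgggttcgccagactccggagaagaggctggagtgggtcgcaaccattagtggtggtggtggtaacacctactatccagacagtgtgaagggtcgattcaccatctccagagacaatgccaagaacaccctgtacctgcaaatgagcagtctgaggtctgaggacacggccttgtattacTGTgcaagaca

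The end of a segment enters that loop, and the last 45 coding bases show how the families differ there. Capitals mark TGTGCAAGA, the codons of cysteine, alanine and arginine, where a segment holds that motif.
Ighv1-81: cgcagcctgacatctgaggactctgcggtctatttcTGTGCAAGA
Ighv3-6: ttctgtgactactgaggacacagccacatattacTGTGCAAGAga
Ighv7-3: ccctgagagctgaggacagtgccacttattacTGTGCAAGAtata
Ighv8-8: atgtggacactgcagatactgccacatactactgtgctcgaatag
Ighv2-4: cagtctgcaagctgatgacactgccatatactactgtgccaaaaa
Ighv11-2: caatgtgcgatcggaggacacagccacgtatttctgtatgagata
Ighv1-74: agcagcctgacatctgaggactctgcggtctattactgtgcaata
TGTGCAAGA was searched on the coding strand in the last 20 coding bases. It was present in 63 of the 113 segments (55.8%), in 46 of the 53 Ighv1 segments and in 0 of 100 kappa light chain segments. Of the 10 segments with the highest mean FPKM, 9 held it, and Ighv8-8 did not.

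Segments of 1 family were close in sequence. Between the coding parts of the variable exons, 1540 pairs of the same family had a median identity of 85.2% (from 70.8% up to full identity), and 4788 pairs of different families had a median of 60.3% (50.2 to 82.6%). For 108 of the 113 segments the nearest other segment was of the same family. The nearest segment was at least 95% identical for 57 segments and at least 98% identical for 14. Ighv1-62-2 and Ighv1-71 were identical over the coding bases. The sources used here do not give how reads shared by such copies were assigned, so the values of single segments within these groups are uncertain, and family sums are less exposed to it.

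The values are FPKM (fragments scaled to gene length and library size), as the authors deposited them, so levels are per length. Fragment totals are not known, and no counting error can be given. The summed FPKM of a library ran from 355787 to 456064. The filter for tests kept the 13590 genes that reached 1 FPKM in 3 or more libraries. Over these genes, vehicle library 3 was least like the rest: its mean Pearson r with the other 5 libraries on the log2(FPKM + 1) scale was 0.944, against 0.957 to 0.961 for the others. Over the 94 Ighv segments that passed the same filter the mean r was 0.631 to 0.704, and vehicle library 3, at 0.673, was not the lowest. The labelled tissue was checked by marker sums: 8 plasma cell markers summed to 1687 to 4592 FPKM, 4 fibroblast markers to 530 to 706, 4 T cell markers to 38.2 to 51.7, 4 macrophage markers to 36.6 to 71.0 and 5 epithelial markers to 13.2 to 29.0.

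Heavy chain variable RNA was abundant in every library. The 113 segments summed to 32388, 33519 and 20668 FPKM in vehicle libraries 1 to 3 and to 21987, 47564 and 21239 FPKM in atorvastatin libraries 1 to 3. Atorvastatin library 2 was the highest and vehicle library 3 the lowest, and the groups overlapped. The means were 28858 ± 7116 FPKM with vehicle and 30263 ± 14987 FPKM with atorvastatin (SD, n = 3 each), and the difference of 1405 FPKM was within the spread (2-sided exact permutation test, p = 0.8). With 3 libraries a group, the smallest p this test can give is 0.1. The difference was -2690 FPKM without vehicle library 3 and -7245 FPKM without atorvastatin library 2. As a share of all FPKM of the library, the segments took 7.96, 8.13 and 4.90% with vehicle and 5.82, 10.4 and 5.97% with atorvastatin.

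The sums of plasma cell markers and of constant genes, like the Ighv sum, were highest in atorvastatin library 2. The 8 plasma cell markers were Jchain, Sdc1, Mzb1, Xbp1, Prdm1, Irf4, Tnfrsf17 and Derl3. They summed to 3739, 3238 and 1687 FPKM with vehicle and to 2544, 4592 and 2182 FPKM with atorvastatin. The lowest and highest libraries of this sum were those of the Ighv sum. Jchain made up most of it, at 1397 to 4117 FPKM, and Jchain, Xbp1 and Derl3 had the same lowest and highest libraries. Mzb1, Sdc1 and Tnfrsf17 were lowest in atorvastatin library 3 and Prdm1 in vehicle library 2, while Irf4 was highest in vehicle library 1. All 8 markers were above 0 in every library. The 8 heavy chain constant genes summed to 19203, 23067 and 17809 FPKM with vehicle and to 16512, 30194 and 13334 FPKM with atorvastatin. Igha, the constant region of IgA, made up 92.6 to 95.6% of that sum. The part of plasma cell content in the Ighv values was not tested.

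Detection was broad and use was narrow. Of the 113 segments, 83 reached 1 FPKM in all 6 libraries, 16 reached 100 FPKM in all 6 and 78 reached 100 FPKM in at least 1 library. The filter of 1 FPKM in 3 libraries was passed by 94 segments and not by 19. Of those 19, Ighv5-12-4, Ighv7-2, Ighv16-1, Ighv6-7, Ighv1-16, Ighv1-24 and Ighv8-13 were listed at 0 in all libraries, 6 were above 0 but never reached 1 FPKM, and 6 reached it in 1 or 2 libraries. Just inside the filter, with 3 libraries at 1 FPKM, were Ighv7-4, Ighv8-4 and Ighv1-49. Just outside it, with 2 libraries, were Ighv2-7, Ighv12-3, Ighv1-23 and Ighv1-56. Ighv2-7 had 164 and 150 FPKM in atorvastatin libraries 1 and 2 and 0.5 FPKM or less in the other 4.

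Usage share, the FPKM of a segment as a percent of the summed Ighv FPKM of its library, sets aside how much antibody RNA a library holds. Few segments carried most of the sum. Between 4 and 8 segments were enough for 50% of it: 5, 6 and 4 with vehicle and 8, 6 and 6 with atorvastatin. The 5 most abundant segments of a library held 54.0, 49.9 and 53.7% with vehicle and 40.3, 48.1 and 49.8% with atorvastatin.

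**Figure D1:**
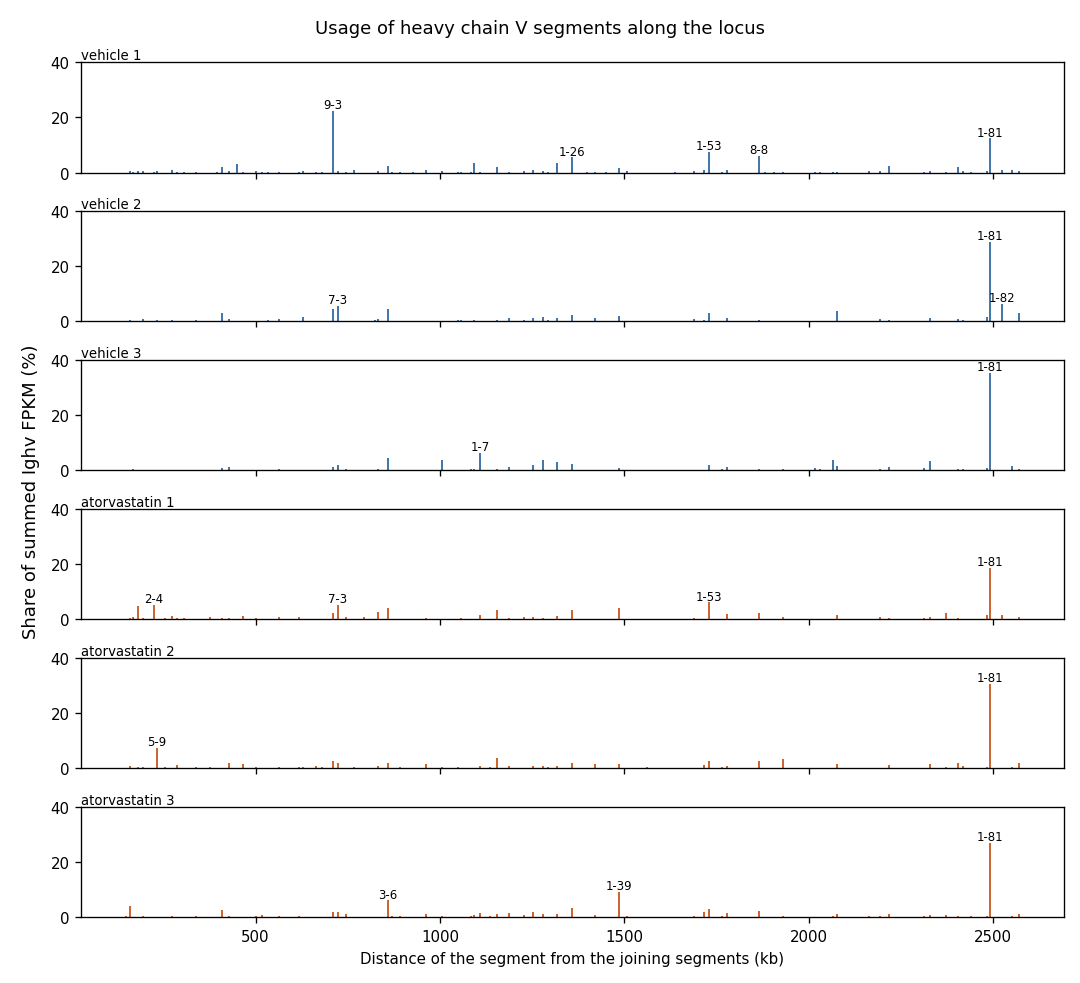
Share of summed Ighv FPKM (percent) of each of the 113 segments, drawn as a bar at its distance (kb) from the joining segments, 1 panel per library; segments with at least 5% are named without the Ighv prefix. Ighv1-81 is the tallest bar in 5 libraries and Ighv9-3 in vehicle library 1, at 22.4%.

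Ighv1-81 (ENSMUSG00000094689, chromosome 12, 115920279 to 115920712), a member of the large Ighv1 family once called J558, led in 5 of the 6 libraries. It had 4021, 9671 and 7328 FPKM with vehicle and 4084, 14638 and 5707 FPKM with atorvastatin. Its share was 12.4, 28.9 and 35.5% with vehicle and 18.6, 30.8 and 26.9% with atorvastatin, and the groups overlapped on both scales. It was the one segment with at least 5% in every library. On the log2(FPKM + 1) scale the difference, atorvastatin minus vehicle, was 0.09 (SE 0.60, 95% interval -1.34 to 1.51, limma adjusted p = 0.979), which leaves changes of more than 1 log2 unit in either direction within the interval. Without vehicle library 1 the difference was -0.27 and without atorvastatin library 2 it was -0.45.

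Ighv9-3 (ENSMUSG00000096459, 114140692 to 114141122) led vehicle library 1, with 7263 FPKM and a share of 22.4%. In vehicle libraries 2 and 3 it had 1498 and 284 FPKM, and in atorvastatin libraries 1 to 3 it had 523, 1182 and 387 FPKM, at shares of 1.37 to 4.47%. The vehicle group thus held both its highest and its lowest value, and the log2 difference was -1.23 (SE 1.11, limma adjusted p = 0.798).

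Besides these, 10 segments held at least 5% in at least 1 library, and 9 of all 12 did so in 1 library alone. Ighv3-6 was the steadiest of them, with 797, 1483 and 917 FPKM with vehicle and 917, 863 and 1296 FPKM with atorvastatin, at shares of 1.82 to 6.10%. Ighv1-53 had 7.59, 3.10 and 2.14% with vehicle and 6.21, 2.77 and 3.03% with atorvastatin. Ighv1-26 had 5.50, 2.39 and 2.27% with vehicle and 3.49, 1.88 and 3.54% with atorvastatin. For these 3 segments the groups overlapped. Ighv1-53 and Ighv1-26 were highest in vehicle library 1, at 2457 and 1781 FPKM, against at most 1366 and 893 FPKM elsewhere.

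Ighv1-9, one of the 10 segments with the highest mean, stayed under 5%, with 633, 190 and 74.1 FPKM with vehicle and 772, 1856 and 266 FPKM with atorvastatin. Other large segments were high in 1 library. Ighv5-9 had 3491 FPKM in atorvastatin library 2, 61.1 times the median of the other 5 libraries, which ran from 21.1 to 219 FPKM. Ighv2-4 had 1129 FPKM in atorvastatin library 1, 75.5 times the median of the others, which ran from 4.02 to 20.6 FPKM. Ighv1-82 had 2188 FPKM in vehicle library 2, 23.3 times the median of the others. Outside those libraries the share of these 3 segments was at most 1.44%. Ighv1-7 reached 6.27% in vehicle library 3, against 0.17 to 1.62% elsewhere, and Ighv8-8 reached 6.10% in vehicle library 1, against 0.35 to 2.77% elsewhere. Ighv7-3 passed 5% in vehicle library 2 (5.60%) and atorvastatin library 1 (5.37%).

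**Figure D2:**
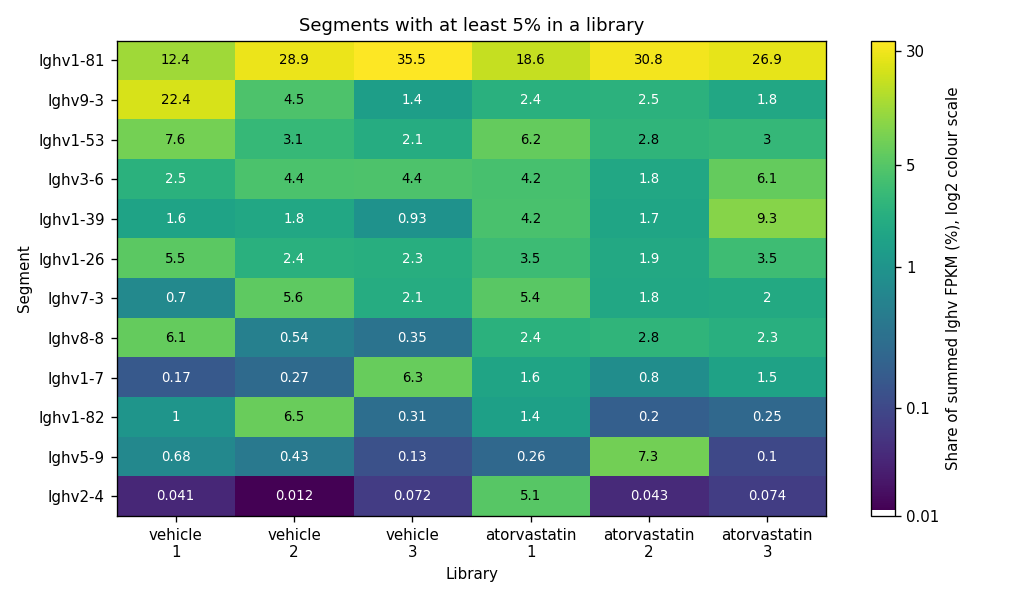
Share of summed Ighv FPKM (percent, printed in each cell and coloured on a log2 scale) of the 12 segments with at least 5% in at least 1 library, by library. The row of Ighv1-81 is high throughout, while Ighv5-9 and Ighv2-4 are high in 1 atorvastatin library each and at most 0.68% elsewhere.

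Peaks in single libraries were common among the smaller segments too. Of the 94 segments that passed the filter, 26 had a highest value over 10 times the median of the other 5 libraries, and 55 had a highest value over 10 times their lowest. The highest value fell in atorvastatin library 2, the library with the largest Ighv sum, for 34 segments, and in the other libraries for 8 to 19. The largest ratios to the median of the other libraries were those of Ighv7-4 (218 FPKM in atorvastatin library 1) and Ighv3-3 (283 FPKM in vehicle library 1, with 178 FPKM in atorvastatin library 2 and at most 1.57 FPKM in the other 4).

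The spread between libraries of a group was accordingly wide. The SD within groups on the log2(FPKM + 1) scale had a median of 1.40 over the 94 Ighv segments and 1.35 over 91 kappa variable segments. It was 0.53 over the 8 heavy chain constant genes, 0.19 over 1063 other genes whose mean level lay between the quartiles of the Ighv segments, and 0.19 over all 13590 genes tested. No test was made of these differences in spread, since segments of 1 library are not independent.

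**Figure D3:**
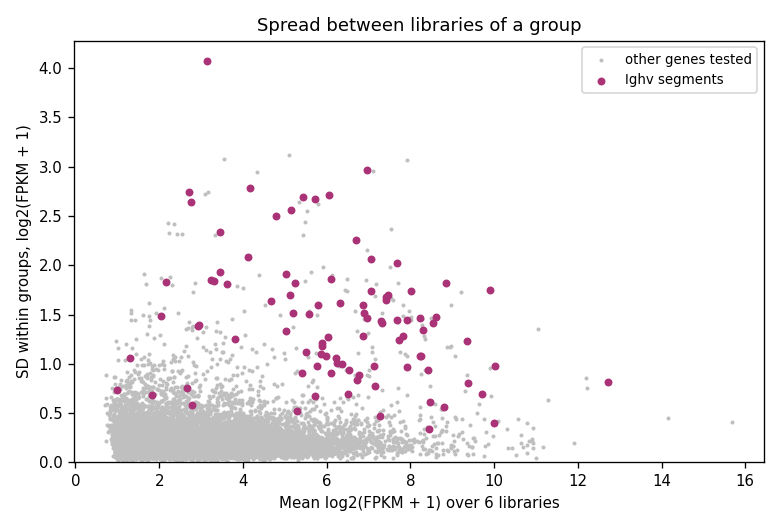
SD within groups against mean level, both on the log2(FPKM + 1) scale, for each of the 13590 genes tested; large points are the 94 Ighv segments and small grey points all other genes, kappa segments included. Most Ighv segments lie above the mass of genes of like level, at a median SD of 1.40 against 0.19.

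By family, Ighv1 held most of the RNA in 5 of 6 libraries. Its share was 47.3, 69.4 and 78.6% with vehicle and 57.9, 64.8 and 68.0% with atorvastatin, while its 53 segments were 46.9% of the segments. Ighv1-81 alone held 26.3 to 47.5% of the family's FPKM. The family means were 65.1 ± 16.1% and 63.6 ± 5.16% (SD, n = 3 each), the groups overlapped, and the exact permutation p was 0.9. The direction of the difference of -1.48 percentage points was not stable: it was 5.28 without vehicle library 3, 0.66 without vehicle library 2 and 1.35 without atorvastatin library 1. With the top segment of each family and library left out it was -8.30 (exact permutation p = 0.3).

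Ighv2 had the smallest p of the 10 families with a mean share of at least 1%, which were the ones tested. It held 4.74, 1.29 and 0.70% with vehicle and 12.6, 4.18 and 5.13% with atorvastatin. Vehicle library 1 lay above atorvastatin library 2, so the groups overlapped, and the difference of 5.05 percentage points had an exact permutation p = 0.2 (adjusted p = 1 over the 10 families). Leaving out 1 library at a time gave differences of 2.41 to 6.60. Different segments led in different libraries. Ighv2-9 was 66.7% of the family in vehicle library 1, Ighv2-9-1 led vehicle libraries 2 and 3, Ighv2-4 was 40.9% in atorvastatin library 1, Ighv2-6 was 29.4% in atorvastatin library 2 and Ighv2-2 was 78.0% in atorvastatin library 3. Ighv2-2 and Ighv2-4 were 98.03% identical. Ighv2-4 had 1129 FPKM where Ighv2-2 had 127 (atorvastatin library 1), and 15.7 FPKM where Ighv2-2 had 850 (atorvastatin library 3). How reads were assigned between them was not tested.

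The share of Ighv9 was set by vehicle library 1, with 22.7%, against 4.77 and 1.68% in the other vehicle libraries and 2.76, 3.86 and 2.31% with atorvastatin. Ighv9-3 held 64.4 to 98.6% of the family in every library. The difference of -6.75 percentage points had an exact permutation p = 0.5, and it was -0.25 without vehicle library 1. Ighv8 was likewise highest in vehicle library 1, at 8.68%, against 1.18 and 1.47% with vehicle and 3.14, 3.95 and 3.78% with atorvastatin, so both ends of its range were vehicle libraries. Its difference was -0.15 percentage points over all libraries and 2.30 without vehicle library 1.

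Ighv3 and Ighv14 had no library far from the rest. Ighv3, led in every library by Ighv3-6, held 4.10, 6.46 and 5.40% with vehicle and 7.08, 3.76 and 6.95% with atorvastatin. Ighv14, in which 4 segments took the lead in different libraries, held 1.17, 3.15 and 1.66% with vehicle and 2.14, 1.40 and 2.08% with atorvastatin. Ighv14-3, the Ighv14 segment with the highest mean, had 134, 572 and 59.3 FPKM with vehicle and 62.8, 254 and 50.3 FPKM with atorvastatin.

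Ighv5, which holds the segments nearest to the joining segments, had 5.07, 6.17 and 3.16% with vehicle and 4.31, 10.8 and 4.92% with atorvastatin. Its peak came from Ighv5-9, which made up 67.8% of the family in atorvastatin library 2, while Ighv5-16 led in 3 libraries. Ighv5-2, known as VH81X and the functional segment nearest to the joining segments, had 4.57, 3.47 and 4.25 FPKM with vehicle and 1.41, 27.4 and 80.95 FPKM with atorvastatin. The high values of Ighv5-2 were in atorvastatin libraries 2 and 3, and its groups overlapped.

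Ighv7, led by Ighv7-3 in every library, held 0.76, 5.76 and 2.21% with vehicle and 7.73, 3.44 and 2.09% with atorvastatin. Ighv6 held 1.48, 0.60 and 3.98% with vehicle and 0.88, 2.20 and 1.85% with atorvastatin. In vehicle library 3 Ighv6-6 was 97.5% of Ighv6, with 803 FPKM, and in the other 5 libraries Ighv6-3 led. Ighv10 held 3.58, 0.91 and 0.72% with vehicle and 0.44, 0.53 and 1.10% with atorvastatin, with Ighv10-3 at 1064 FPKM in vehicle library 1 and at 34.5 to 179 FPKM elsewhere. Over the 10 tested families the groups overlapped in all 10, and every adjusted p was 1. The exact test cannot give a p under 0.1 with 3 libraries a group, and adjustment cannot lower it. The adjusted values therefore cannot show whether a family differed between the groups.

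**Figure D4:**
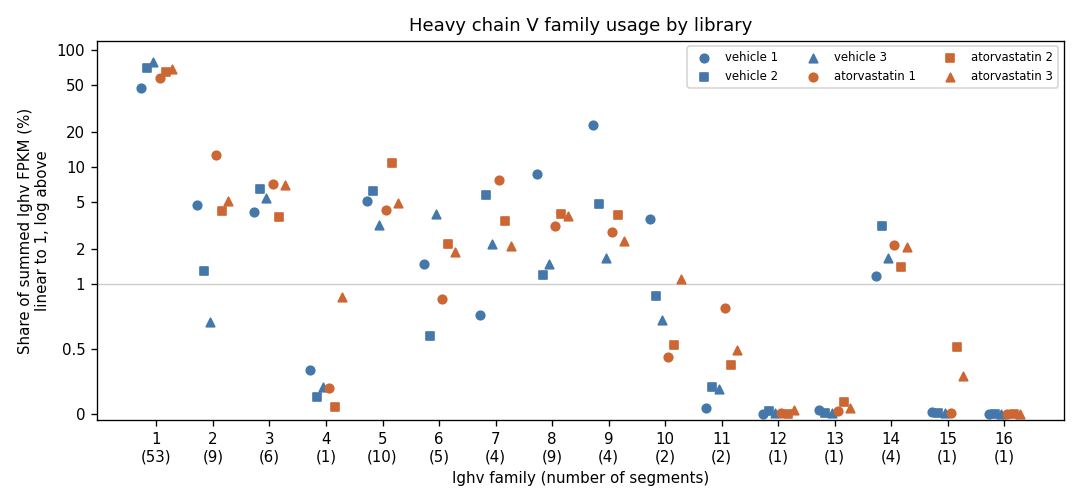
Share of summed Ighv FPKM (percent, linear up to 1 and logarithmic above) of the 16 families in each library, with the number of segments of a family in parentheses; blue is vehicle, orange is atorvastatin, and the marker shape gives the library number. The groups overlap in the 10 families above a mean of 1%, and Ighv11, at 0.04 to 0.20% with vehicle and 0.38 to 0.82% with atorvastatin, does not.

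The 6 small families were given as values. Ighv11 held 0.04, 0.20 and 0.19% with vehicle and 0.82, 0.38 and 0.49% with atorvastatin, so its groups did not overlap. Ighv4-1, the single segment of Ighv4, had 0.05 to 0.90%. Ighv15-2, the single segment of Ighv15, had 4.36, 2.61 and 0.93 FPKM with vehicle and 2.11, 243 and 61.2 FPKM with atorvastatin. Ighv13-2 had 1.39 to 44.7 FPKM. Ighv12-3, used like Ighv11-2 by B-1 cells that bind phosphatidylcholine, had 6.77 FPKM in vehicle library 2, 6.09 FPKM in atorvastatin library 3 and 0.45 to 0.79 FPKM elsewhere. Ighv16-1 was listed at 0 throughout.

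Position along the locus was not part of the choice of members. Ordered from the joining segments, the nearest 38 segments (Ighv5-2 to Ighv3-5, at 148.7 to 832.8 kb) held 36.1, 23.2 and 10.6% of the Ighv FPKM with vehicle and 33.0, 25.4 and 17.9% with atorvastatin. The middle 38 (Ighv3-6 to Ighv8-4) held 24.0, 20.3 and 30.9% with vehicle and 24.0, 21.1 and 34.8% with atorvastatin. The farthest 37 (Ighv1-49 to Ighv1-85, at 1625.4 to 2570.2 kb) held 39.9, 56.5 and 58.5% with vehicle and 43.0, 53.5 and 47.3% with atorvastatin. With Ighv1-81 left out, an alternative chosen after seeing the data, the farthest segments held 27.9 to 38.8% in the 6 libraries. The groups overlapped in all 3 stretches.

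Measures of how many segments carried the Ighv sum differed in whether the groups overlapped. The effective number of segments (the exponential of the Shannon entropy of the shares) was 24.5, 24.97 and 20.4 with vehicle and 33.2, 26.7 and 27.3 with atorvastatin. Every atorvastatin library lay above every vehicle library, with means of 23.3 ± 2.53 and 29.1 ± 3.59 (SD, n = 3 each) and an exact permutation p = 0.1, the smallest possible. The difference of 5.79 was 3.72 without atorvastatin library 1. The share of the 5 most abundant segments, given above, also did not overlap between groups (exact permutation p = 0.1). That separation was narrow, with 49.87% in vehicle library 2 and 49.81% in atorvastatin library 3. Atorvastatin library 1, at 40.3%, lay farthest from the rest. The inverse Simpson index, which gives more weight to the largest segments, was 11.7, 9.73 and 7.05 with vehicle and 17.3, 9.08 and 10.6 with atorvastatin, and it overlapped (exact permutation p = 0.5). The number of segments needed for 50% of the sum, given above, and the share of the leading segment also overlapped. The number of segments with at least 1% of the sum was 17, 21 and 19 with vehicle and 21, 23 and 23 with atorvastatin, with 21 in both groups.

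With Ighv1-81 left out, the effective number was 25.1, 39.6 and 38.9 with vehicle and 40.9, 47.1 and 41.6 with atorvastatin. The effective number of kappa variable segments was 28.1, 30.2 and 20.6 with vehicle and 36.4, 23.9 and 31.0 with atorvastatin, and it overlapped. The 8 B cell markers moved with the groups: they summed to 407, 470 and 351 FPKM with vehicle and to 305, 281 and 288 FPKM with atorvastatin. The groups of 6 of the 8 did not overlap, with atorvastatin lower, where 8.85% of all genes tested were lower in this way. By limma's adjusted threshold 0 of 8 passed, where 0% of all genes did, and 4 of 8 had an unadjusted p under 0.05, against 7.17% of all genes. None of the 8 was at 0. Their part in the effective number was not tested.

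**Figure D5:**
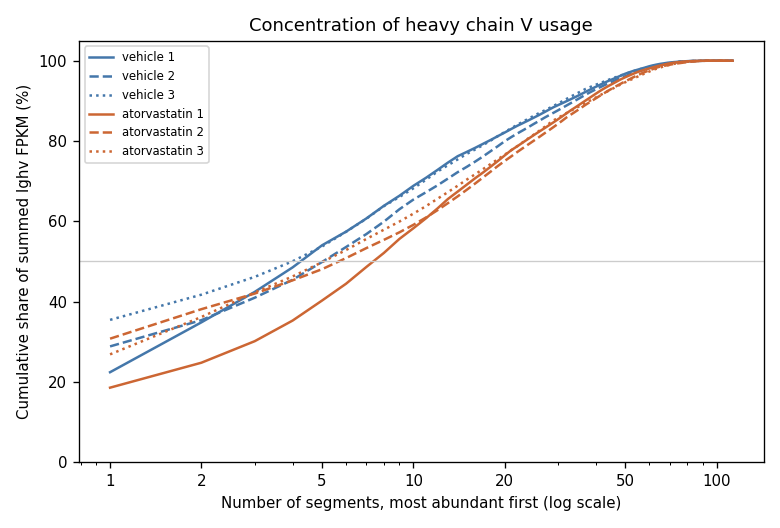
Cumulative share of summed Ighv FPKM (percent) against the number of segments taken from the most abundant down (log axis), 1 line per library; blue is vehicle, orange is atorvastatin, and the grey line marks 50%. The line of atorvastatin library 1 is the lowest at 5 segments, with 40.3%, against 48.1 to 54.0% for the others.

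The mean overlap of segment use was not higher within groups than between them. The overlap of 2 libraries, the sum over segments of the smaller of both shares, had a mean of 59.0% over the 6 pairs within groups (43.7 to 67.5%) and 60.0% over the 9 pairs between groups (50.01 to 69.9%). The difference was -0.998 percentage points (1-sided exact permutation test, p = 0.7). It was 0.86, 2.54 and 1.54 without vehicle libraries 1, 2 and 3 in turn, with 1-sided exact p-values of 0.5, 0.2 and 0.3. At the level of families the overlap was 79.4% within and 80.0% between groups (exact permutation p = 0.7). The least alike pair was vehicle libraries 1 and 3, at 43.7%, and the most alike pair was vehicle library 2 and atorvastatin library 3, at 69.9%.

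No single segment passed the test across all genes. In limma on log2(FPKM + 1), adjusted over 13590 genes, 0 of 94 Ighv segments had an adjusted p under 0.05, where 0% of all genes did, and the smallest adjusted p of a segment was 0.627. An unadjusted p under 0.05 was found for 9 of 94 segments (9.57%), against 7.17% of all genes. The groups did not overlap for 9 of 94 segments (9.57%), against 14.4% of all genes. The first share was above and the second below that of the whole table, and nothing particular to the segments is read from either. The 9 were Ighv2-4, Ighv11-2, Ighv1-39, Ighv8-5, Ighv1-61, Ighv1-67 and Ighv1-74, all higher with atorvastatin (5.53% of all genes were higher in this way), and Ighv3-1 and Ighv1-22, lower (8.85% of all genes).

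The median difference over the 94 segments was 0.16 on the log2 scale, with 52 above and 42 below 0, against a median of -0.02 over all genes, of which 6382 of 13590 were above 0. By family, a difference above 0 was found for 21 of 47 tested Ighv1 segments, 6 of 8 in Ighv2, 2 of 6 in Ighv3, 6 of 9 in Ighv5, 1 of 2 in Ighv6, 3 of 3 in Ighv7, 2 of 4 in Ighv8, 3 of 4 in Ighv9, 1 of 2 in Ighv10, 2 of 2 in Ighv11 and 3 of 4 in Ighv14. Of the families with 1 tested segment, Ighv13 and Ighv15 were above 0 and Ighv4 was below. The data could bound few of these differences: the 95% interval lay within 1 log2 unit of 0 for 3 of 94 segments (3.19%) and for 89.8% of all genes. Ighv3-6 was one of the 3, with a difference of -0.03 (interval -0.77 to 0.72).

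The 5 segments with the smallest p were Ighv1-74, Ighv11-2, Ighv1-67, Ighv1-22 and Ighv2-5. Ighv1-74 had 53.7, 17.5 and 51.0 FPKM with vehicle and 544, 248 and 190 FPKM with atorvastatin, so that every atorvastatin library lay above every vehicle library. Its log2 difference was 2.98 (SE 0.54, unadjusted p = 9.23e-04, limma adjusted p = 0.627). Ighv1-74 shared 96.1% of its coding bases with Ighv1-69, which had 108 to 247 FPKM and whose groups overlapped.

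Ighv11-2, a segment linked to B-1 cells, had 12.2, 66.8 and 38.6 FPKM with vehicle and 173, 172 and 102 FPKM with atorvastatin. The groups did not overlap, and the log2 difference was 2.15 (SE 0.58, limma adjusted p = 0.692). Its near copy Ighv11-1, at 98.7% identity, had 1.06 to 1.89 FPKM with vehicle and 1.48 to 6.87 FPKM with atorvastatin.

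Ighv1-22 was the one of the 5 with lower values with atorvastatin: 1100, 438 and 650 FPKM with vehicle and 307, 388 and 217 FPKM with atorvastatin, with a change of -1.20 on the log2 scale (SE 0.38, limma adjusted p = 0.692). Ighv2-5 had 4.70, 13.4 and 27.2 FPKM with vehicle and 132, 159 and 23.9 FPKM with atorvastatin, and its groups overlapped (log2 difference 2.61). Ighv1-67 was low in all libraries, at 1.94 to 5.59 FPKM with vehicle and 5.78 to 13.4 FPKM with atorvastatin (log2 difference 1.22). Ighv1-39, the largest segment whose groups did not overlap, had 516, 611 and 192 FPKM with vehicle and 921, 800 and 1976 FPKM with atorvastatin (log2 difference 1.53, SE 0.53, limma adjusted p = 0.692).

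Other genes of the heavy chain pathway were taken by list. Of the constant genes 0 of 8 were called by limma, where 0% of all genes were. Ighm and Ighd, the constant regions of IgM and IgD on naive B cells, were the 2 of 8 whose groups did not overlap. The groups of 14.4% of all genes did not overlap, and 8.85% of all genes were lower with atorvastatin in this way. Ighm had 386, 921 and 286 FPKM with vehicle and 279, 238 and 268 FPKM with atorvastatin. Ighd had 114, 147 and 94.96 FPKM with vehicle and 83.9, 53.0 and 92.3 FPKM with atorvastatin. Both were lower in every atorvastatin library than in every vehicle library, and neither passed the adjusted threshold (log2 differences -0.84 and -0.64, limma adjusted p = 0.696 and 0.692). The groups lay close: the lowest vehicle and highest atorvastatin values were 286 and 279 FPKM for Ighm and 94.96 and 92.3 FPKM for Ighd. The highest Ighm value, 921 FPKM, was that of vehicle library 2 alone.

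Of the 4 joining segments 0 were called, where 0% of all genes were. Ighj4, the most abundant of them in 5 libraries, had 11.9 to 68.4 FPKM. Among the genes of recombination, Rag1 and Rag2, the recombinase that joins the segments, Dntt, which adds bases at the joins, and Ung, which repairs uracil in DNA, did not pass the filter; Rag1 was at most 0.08 FPKM and Rag2 at most 0.02.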

How the data were processed

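The deposited tables hold FPKM values, 1 library per table, made by the authors. FastQC 0.11.2, Bowtie and mm10 are named, per the submitters' processing notes; the sources used here do not give the quantifier, annotation or strand setting. Gene names, biotypes and variable exon sequences came from GENCODE mouse release 21. Segments were grouped by family and expressed as shares of the summed Ighv FPKM. Differences were tested with limma 3.58.1 (R 4.3.3, trend) on log2(FPKM + 1), for genes that reached 1 FPKM in 3 or more of 6 libraries, with Benjamini-Hochberg adjustment over all 13590 genes at 0.05; the pseudocount of 1 understates changes of low genes. Single values per library were compared by exact permutation over libraries. The limma fit was tested on simulated data. The exact test and the effective number of segments were checked only on small made-up values with known answers. Segments were named by a rule: the 10 highest means, the leader of each family and library, the 5 smallest p and shares of at least 5%; others that are named were chosen after their values were seen. The members and lists were chosen with earlier results of these data known. Pseudocount, filter, scaling, weighting by length, left-out libraries and the replicate block were tried as alternatives. Promoters, recombination signals and proteins of the segments were not analysed here, and some genes of the context lists are not reported here.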

Additional observations from a re-analysis of the deposited data

How the results depend on the processing

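Each of the 20 results was recomputed under alternatives, giving 248 values. Of these, 224 kept their direction and their side of the threshold and 24 turned direction. The tally is not a measure of stability, since part of the values could not change. In this balanced design the replicate block leaves a difference as it was, and the limma filters leave that of a single segment as it was. The segments with the smallest p, which are among the results, were chosen from these same data. The exact tests cannot give a p under 0.05 with so few libraries, so for their results only the direction could change. Under every alternative 0 segments were called. In the main fit 0% of all 13590 genes were called, so nothing particular to the segments is read from this. The number of all genes called under each alternative is not reported here. Leaving out 1 library at a time, the lowest and highest differences (atorvastatin minus vehicle) were -0.45 and 0.47 for Ighv1-81 (log2) and -7245 and 5917 FPKM for the Ighv sum. In percentage points of usage they were -10.4 and 5.28 for Ighv1, -0.0011 and 1.69 for Ighv3, -0.19 and 3.07 for Ighv5, -1.09 and 0.61 for Ighv6, -0.15 and 2.93 for Ighv7, -1.45 and 2.30 for Ighv8, -0.53 and 0.46 for Ighv14, and -4.36 and 2.54 for the overlap within against between groups. With 1 library left out, the effective number of segments was higher with atorvastatin by 3.72 to 6.99. Its groups did not overlap, so no such omission could turn its direction. Without the top segment of each family and library the differences were -0.0302 for Ighv5, 0.29 for Ighv6 and 0.86 for Ighv9, and that for Ighv1 moved from -1.48 to -8.30. With Ighv1-81 left out, chosen after seeing the data, they were 0.30 for Ighv8 and 0.44 for the overlap. The cause was not tested beyond what each omission removes. Replicate numbers showed no pairing of the libraries. Correlations of deviations were -0.11, 0.14 and -0.02 for same numbers and ran from -0.16 to 0.19 for different numbers. With so few libraries this check cannot exclude a pairing. With the replicate number as a block, 0 segments were called by limma (smallest adjusted p = 0.728). The paired exact p of the effective number was 0.25, the smallest that the paired test can give with these libraries. Fragment totals are not known, so counting error could not be given, and segments of near-identical sequence may share reads.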
